A study of Mus musculus with 6 samples.

Results

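Of the 2404 genes in the table of hippocampal expression after chronic corticosterone, 6 that belong to the restraint of NF-kB and to inflammatory responses are described here: Nfkbia, Mertk, Il1r1, Serpina3n, Irf9 and Ifi204. They were found by their gene symbols, and each matched a single row. CORT mice were injected under the skin once a day with corticosterone (40 mg/kg) over 36 days, and vehicle mice received the same solvent (DMSO and Tween-80 in water) without the hormone for as long. All were adult male C57BL/6 mice, 7 to 8 weeks old at the start, with 3 hippocampal libraries per group. The sample labels call the treatment cortisone, whereas the methods name corticosterone, the main glucocorticoid of rodents. Levels are given in TPM, a measure of transcript abundance that is scaled for transcript length and for the library total.

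NF-kB is a family of transcription factors that switches on cytokine and other inflammatory genes. In resting cells the protein encoded by Nfkbia, I-kappa-B-alpha, holds NF-kB dimers in the cytoplasm, and signals from receptors such as that for interleukin-1 lead to its destruction. Glucocorticoids bind the glucocorticoid receptor, which is known to limit inflammation partly by raising such inhibitors. Acute phase proteins and interferon-induced genes are usually read as signs of an ongoing inflammatory or antiviral response, and reactive astrocytes of the brain are a known source of Serpina3n.

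Every listed gene had already been selected by the authors' own test on these same libraries, so that a low p-value here is not independent evidence of a change, and genes outside the table were not analysed here. CORT was set against vehicle with limma, on log2(TPM + 1), for the 2241 genes that reached 1 TPM in at least 3 libraries. Log2 changes (CORT minus vehicle) on this scale understate the change of low genes. The listed genes held 30.1% to 31.5% of the TPM in the CORT libraries and 29.2% to 29.9% in the vehicle libraries, and the depth is unknown because TPM keeps no read number. CORT replicate 3 stood apart in genes of the choroid plexus, with Folr1 at 22.52 TPM against 1.33 to 3.73 TPM in the other 5 libraries. The hippocampal neuron markers Wfs1, C1ql2 and Neurod6 were present in every library, at 71.83 TPM or more, with lower levels in CORT for Wfs1 (log2 change -0.42, adjusted p = 0.00186 from limma) and C1ql2 (-0.38, 0.0077).

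All 6 genes stood higher in the CORT hippocampus, whether they are known as brakes on inflammation or as parts of an inflammatory response. The genes were chosen with earlier results of these data known, so the counts that follow are not independent of that choice. Of the 5 that were abundant enough to test, 5 rose at an adjusted p under 0.05 (limma with Benjamini-Hochberg adjustment), where 50.6% of all tested genes passed, 25.8% higher and 24.7% lower. In all 6 genes every CORT library lay above every vehicle library, which was so for 35.7% of the listed genes, with 33.7% the other way round and 69.5% without overlap in either direction. The sizes differed: Nfkbia rose by 1.36 on the log2 scale, Serpina3n by 0.57, Irf9 by 0.52, Il1r1 by 0.36 and Mertk by 0.33, while Ifi204 stayed below 1 TPM in all libraries. After a correction for the GC content of transcripts, Nfkbia and Serpina3n were the 2 genes that still passed, and the direction of all 5 was kept.

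**Figure D1:**
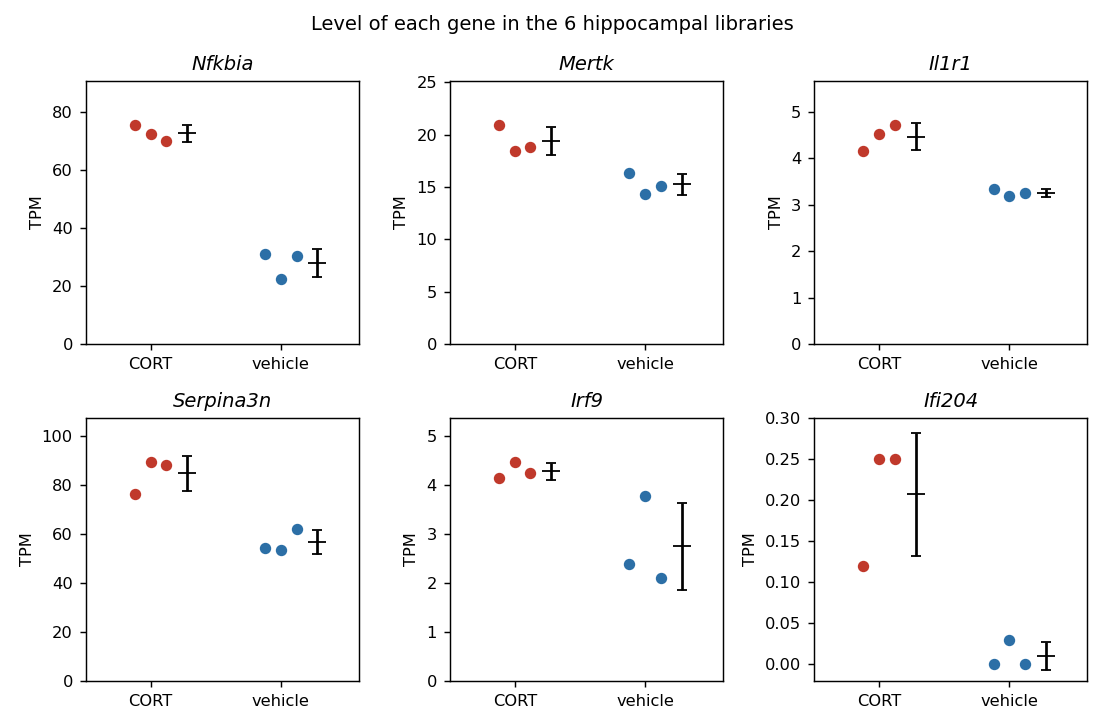
TPM of each of the 6 genes in the 3 CORT and 3 vehicle libraries (points), with the group mean and SD (bars). In every panel the CORT points lie above the vehicle points, with the widest gap for Nfkbia (69.91 to 75.46 TPM in CORT libraries, 22.36 to 30.96 TPM in vehicle libraries) and little space between the groups for Irf9, where a vehicle library reached 3.77 TPM against a lowest CORT value of 4.14 TPM.

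Nfkbia (ENSMUSG00000021025) had 75.46, 72.2 and 69.91 TPM in the CORT libraries, against 30.96, 22.36 and 30.23 TPM in the vehicle libraries. Even the lowest CORT library was thus far above the highest vehicle library, and the groups were well apart. The group means were 72.5 ± 2.79 TPM in CORT and 27.85 ± 4.77 TPM in vehicle (SD, n = 3 each), a ratio of 2.6. Its log2 change was 1.36 (SE 0.12, adjusted p = 0.000107 from limma), which ranked 22 among the 2241 tested genes, so that 0.937% of them rose by more. An exact two-sided permutation test gave p = 0.1, the smallest value that 3 libraries against 3 can give.

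The 250 bases before the Nfkbia start site, from the RefSeq promoter table (build GRCm38.p6, an earlier assembly than the GRCm39 named for these data), are shown because NF-kB is known to switch on its own inhibitor through this promoter. They lie on the minus strand at chr12:55492648-55492897, and capitals mark the match to an NF-kB motif (GGG, then 2 unspecified bases, then TTTCC), read here on the opposite strand, 29 bases before the start site:
Nfkbia promoter: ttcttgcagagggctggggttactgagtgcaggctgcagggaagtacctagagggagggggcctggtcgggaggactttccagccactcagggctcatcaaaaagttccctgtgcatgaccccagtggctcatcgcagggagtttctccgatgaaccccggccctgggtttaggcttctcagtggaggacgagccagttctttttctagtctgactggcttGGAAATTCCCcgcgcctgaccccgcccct
Searched on both strands, this motif was found in 1.41% of all 32851 promoter windows of that length and in 1.5% of the 2403 windows of listed genes. The match also meets a stricter form with A as the first base after GGG, which was in 0.356% of all windows and overlaps the wider motif wholly. The core of the glucocorticoid receptor response element, ACANNNTGT, was not matched in this window.

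Few other parts of the NF-kB machinery were in the table. Of 40 subunits, inhibitors and activating kinases, 3 were listed and 1, Nfkbia itself, was higher. Tbk1, a kinase that carries signals from nucleic acid sensors, had 26.9 ± 0.673 TPM in CORT and 24.4 ± 0.756 TPM in vehicle (SD, n = 3 each), with a log2 change of 0.14 that did not pass (adjusted p = 0.111 from limma). Otud7b, a deubiquitinase known to restrain NF-kB, had a log2 change of 0.20 (adjusted p = 0.12 from limma), and it passed without vehicle replicate 3 (0.0438). The median log2 change of the 3 was 0.20, against 0.05 over all tested genes, of which 25.8% were higher and 24.7% lower.

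In a wider list of glucocorticoid targets, most listed members rose and several fell. Not all of the list is known to damp inflammation. Klf9, Fkbp5 and Sgk1, which were higher, are general targets of the receptor. Of 30 genes on this list, 14 were in the table and tested. Of these, 8 were higher, Nfkbia and Mertk among them, 3 were lower and 3 did not pass. Besides Nfkbia, Mertk and the general targets, those higher were Tsc22d3, Zfp36 and Klf2, and those lower were Zfp36l1, Zfp36l2 and Tgfb1. Over all tested genes 25.8% were higher and 24.7% lower. The median log2 change of the 14 was 0.53, against 0.05 over all tested genes. Tsc22d3, a leucine zipper protein that binds NF-kB, had 118 ± 2.67 TPM in CORT and 74.9 ± 5.23 TPM in vehicle (SD, n = 3 each), a log2 change of 0.65 (SE 0.07). Zfp36, known as tristetraprolin, which hastens the decay of cytokine mRNAs, had 6.49 ± 0.680 TPM in CORT and 2.84 ± 0.459 TPM in vehicle (SD, n = 3 each), a ratio of 2.29.

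Its relatives went the other way. Zfp36l1 and Zfp36l2, RNA-binding proteins of the same family, had log2 changes of -0.40 and -0.49, with no overlap between the groups. The cytokine Tgfb1, which quiets microglia, had 3.72 ± 0.510 TPM in CORT and 6.39 ± 0.826 TPM in vehicle (SD, n = 3 each), a log2 change of -0.65 (SE 0.13). Fkbp5, a co-chaperone of the glucocorticoid receptor and a common check of its activity, had 121 ± 6.19 TPM in CORT and 46.2 ± 2.34 TPM in vehicle (SD, n = 3 each), a ratio of 2.63 close to the 2.6 of Nfkbia. Without single libraries the numbers ranged from 6 to 8 higher and from 2 to 3 lower.

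Mertk (ENSMUSG00000014361) encodes a receptor kinase of the TAM family, through which phagocytes recognise dying cells and damp their own cytokine output. It had 20.94, 18.49 and 18.86 TPM in the CORT libraries and 16.34, 14.35 and 15.07 TPM in the vehicle libraries. The groups did not overlap, and the gap between the lowest CORT and the highest vehicle library was about as large as the range within each group. Mertk averaged 19.4 ± 1.32 TPM in CORT and 15.3 ± 1.01 TPM in vehicle (SD, n = 3 each), a ratio of 1.27 and a log2 change of 0.33 (SE 0.09, adjusted p = 0.0204 from limma, exact permutation p = 0.1). The call of Mertk was lost without CORT replicate 1 (adjusted p = 0.0676 from limma), without vehicle replicate 2 (0.0543) and with the GC correction, where the log2 change was 0.22 (0.0666), about 1.5 times smaller. An antisense transcript, Gm14011, is annotated within the gene, and although the methods speak of alignment in an orientation mode, they do not say whether reads were counted by strand.

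The other TAM receptor in the table moved in the opposite direction. Tyro3, the member of the family that is abundant in neurons, had 60.2 ± 4.48 TPM in CORT and 80.4 ± 8.18 TPM in vehicle (SD, n = 3 each), a log2 change of -0.41 (SE 0.09, adjusted p = 0.00896 from limma). Of 36 TAM receptors and genes for the uptake of dying cells, 11 were in the table and 10 were tested. The 2 that were higher were Mertk and the lipid exporter Abca1 (0.46 on the log2 scale), and the 3 that were lower were Tyro3, the microglial receptor Trem2 (-0.49) and Sirpa, the receptor for the "do not eat me" signal Cd47 (-0.21). Their median log2 change was -0.19, against 0.05 over all tested genes, and 2 higher and 3 lower of 10 are shares near those over all tested genes, 25.8% and 24.7%. Mfge8, which bridges dying cells to phagocytes, had 183 ± 6.93 TPM in CORT and 207 ± 21.2 TPM in vehicle (SD, n = 3 each) and did not pass (adjusted p = 0.0653 from limma). Cd300lf, a receptor for lipids of dying cells, was too low to be tested, with 0.48, 0.28 and 0.54 TPM in the CORT libraries and 0.08, 0.05 and 0 TPM in the vehicle libraries. With each library centred on its median 6 of the 10 were lower, and only 1 was higher with the GC correction or without CORT replicate 1, CORT replicate 2 or vehicle replicate 2.

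Il1r1 (ENSMUSG00000026072) encodes the signalling receptor for interleukin-1, which in brain is found on vascular endothelium among other cells. It was a low transcript, with 4.16, 4.53 and 4.72 TPM in the CORT libraries and 3.35, 3.18 and 3.26 TPM in the vehicle libraries. The vehicle values were nearly the same, and each CORT value was above them. The means were 4.47 ± 0.285 TPM in CORT and 3.26 ± 0.0851 TPM in vehicle (SD, n = 3 each), a ratio of 1.37 and a log2 change of 0.36 (SE 0.11, adjusted p = 0.0285 from limma, exact permutation p = 0.1). This call was the most sensitive to transcript GC content among the 5 genes: after the correction the log2 change of Il1r1 was 0.18 with an adjusted p of 0.205 from limma. The annotation places 6480 bases of Il1r1 in overlap with Gm38070, an unverified transcript on the same strand. The call was also lost without CORT replicates 2 (0.0829) and 3 (0.0876) and without vehicle replicates 1 (0.0538) and 2 (0.0589).

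Irak2 and Peli1, which act in the signalling of this receptor, were higher as well. Of 42 genes of interleukin-1 and Toll-like receptor signalling, 5 stood in the table, with 4 higher, Il1r1 among them, 1 lower and a median log2 change of 0.44, against 0.05 over all tested genes, of which 25.8% were higher and 24.7% lower. Irak2, a kinase of the receptor complex, had 19.5 ± 2.91 TPM in CORT and 13.4 ± 1.12 TPM in vehicle (SD, n = 3 each), a log2 change of 0.50 (SE 0.12). Peli1, a ubiquitin ligase that acts on the same kinases, had 20.8 ± 0.431 TPM in CORT and 15.1 ± 0.692 TPM in vehicle (SD, n = 3 each). Tlr7, a sensor of single-stranded RNA, had 1.72 ± 0.0493 TPM in CORT and 0.593 ± 0.102 TPM in vehicle (SD, n = 3 each), the largest ratio of the list at 2.9.

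The member that fell was Il33, a cytokine of the interleukin-1 family that glia hold in their nuclei. It had 26.0 ± 0.748 TPM in CORT and 31.3 ± 3.42 TPM in vehicle (SD, n = 3 each), and its adjusted p of 0.0449 from limma became 0.0853 to 0.108 without CORT replicate 1, 2 or 3 or vehicle replicate 1 or 3. Peli1 did not pass after the GC correction (0.0548), when 2 of the 5 were higher.

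Serpina3n (ENSMUSG00000021091), a secreted inhibitor of serine proteases and a widely used marker of reactive astrocytes, was the most abundant of the 6 genes. It had 76.25, 89.39 and 88.12 TPM in the CORT libraries and 53.99, 53.47 and 62.1 TPM in the vehicle libraries. The groups were well apart, with no vehicle library near the lowest CORT library. The means were 84.6 ± 7.25 TPM in CORT and 56.5 ± 4.84 TPM in vehicle (SD, n = 3 each), a ratio of 1.5 and a log2 change of 0.57 (SE 0.09, adjusted p = 0.00164 from limma, exact permutation p = 0.1). Over 15 alternative settings its adjusted p from limma ranged from 0.00134 to 0.0082.

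Reads of this gene may be shared with its paralogs, since its transcript matches those of Serpina3c, Serpina3m and Serpina3h at 88.0%, 87.7% and 86.0% identity over 1219, 1140 and 1231 aligned bases. Of the other Serpina3 genes that were looked up, 3 were in the table and were far lower. Further paralogs, Serpina3c among them, were not looked up. Serpina3f, Serpina3g and Serpina3h together came to 4.06, 5.39 and 4.23 TPM in the CORT libraries and 1.15 to 1.75 TPM in the vehicle libraries. Serpina3g, a member of the same cluster known in mouse lymphocytes, had 3.30 ± 0.349 TPM in CORT and 1.41 ± 0.243 TPM in vehicle (SD, n = 3 each), a ratio of 2.34. Thus each of these Serpina3 genes was higher in every CORT library than in every vehicle library, and the sum of the 3 came to 4.8% to 6.03% of the Serpina3n level in CORT libraries and 2.15% to 3.02% in vehicle libraries.

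The promoter of Serpina3n is shown because it was the only window of these genes with matches to both the glucocorticoid receptor and the NF-kB motifs. From the same RefSeq table it is on the plus strand at chr12:104406458-104406707 (GRCm38.p6). Capitals mark, from the left, the hexamer AGAACA, a single arm of the glucocorticoid receptor element (183 bases before the start site), the NF-kB motif as above (171 bases before) and the response element core ACANNNTGT (76 bases before):
Serpina3n promoter: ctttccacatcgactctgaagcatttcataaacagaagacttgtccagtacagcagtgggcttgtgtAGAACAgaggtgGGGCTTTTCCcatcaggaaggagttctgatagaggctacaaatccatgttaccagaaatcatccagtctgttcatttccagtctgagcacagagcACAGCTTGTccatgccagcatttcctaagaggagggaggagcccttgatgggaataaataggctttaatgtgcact
Over all windows the hexamer was present in 16.1% and the core in 5.84%, and among windows of listed genes in 10.9% and 4.45%. The hexamer also stood in the second of 2 windows of Il1r1, 131 bases before the start. Of the 7 windows, which cover 5 of the 6 genes, none held the interferon-stimulated response element (TTTC, 2 unspecified bases, TTTC), which was in 2.98% of all windows. These matches are descriptions of the sequence and do not show binding.

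Of the 9 other acute phase and reactive astrocyte genes that could be tested, 7 were higher. With Serpina3n included, 14 of the 47 genes on this list were in the table and 10 were tested, 8 were higher and 2 did not pass. Over all tested genes 25.8% were higher and 24.7% lower. The median log2 change of the 10 was 0.58, against 0.05 over all tested genes. Too low to test were Serpina3f and Serpina3h, summed above, Aspg and Hpx. Aspg had 0.76, 0.34 and 0.53 TPM in the CORT libraries and 1.18, 1.08 and 0.85 TPM in the vehicle libraries. Hpx averaged 0.363 TPM in CORT and 0.987 TPM in vehicle, with overlapping groups. The metallothioneins Mt1 and Mt2, small metal-binding proteins induced by glucocorticoids as well as by injury, had log2 changes of 0.32 and 0.61. Mt2 had 1304.05, 1546.45 and 1446.99 TPM in the CORT libraries and 946.0, 880.05 and 978.18 TPM in the vehicle libraries. Il6ra and Lifr are receptor subunits for interleukin-6 and leukaemia inhibitory factor that signal to the acute phase factor Stat3. They rose by 0.57 (SE 0.13) and 0.60 (SE 0.20) on the log2 scale. The groups nearly met for Lifr, with a lowest CORT value of 10.73 TPM and a highest vehicle value of 10.68 TPM (adjusted p = 0.0417 from limma). Vim, an intermediate filament of reactive astrocytes, had 79.3 ± 10.1 TPM in CORT and 59.4 ± 8.69 TPM in vehicle (SD, n = 3 each), and it did not pass without CORT replicate 2 or 3 or vehicle replicate 2 (adjusted p of 0.0608 to 0.0754 from limma).

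Lrg1, a secreted acute phase protein, had the largest log2 change of this list, 1.57 (SE 0.47), and also a wide spread, with 5.47, 9.45 and 10.47 TPM in the CORT libraries and 4.91, 0.66 and 1.99 TPM in the vehicle libraries. Socs3, a feedback inhibitor of Stat3, had 1.4, 3.4 and 4.65 TPM in the CORT libraries and 2.0, 1.03 and 1.36 TPM in the vehicle libraries, which overlapped (adjusted p = 0.0758 from limma). Itih3, a matrix-binding plasma protein, had a log2 change of -0.24 (adjusted p = 0.0946 from limma). The number higher was 5 without CORT replicate 2 and 5 without CORT replicate 3.

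**Figure D2:**
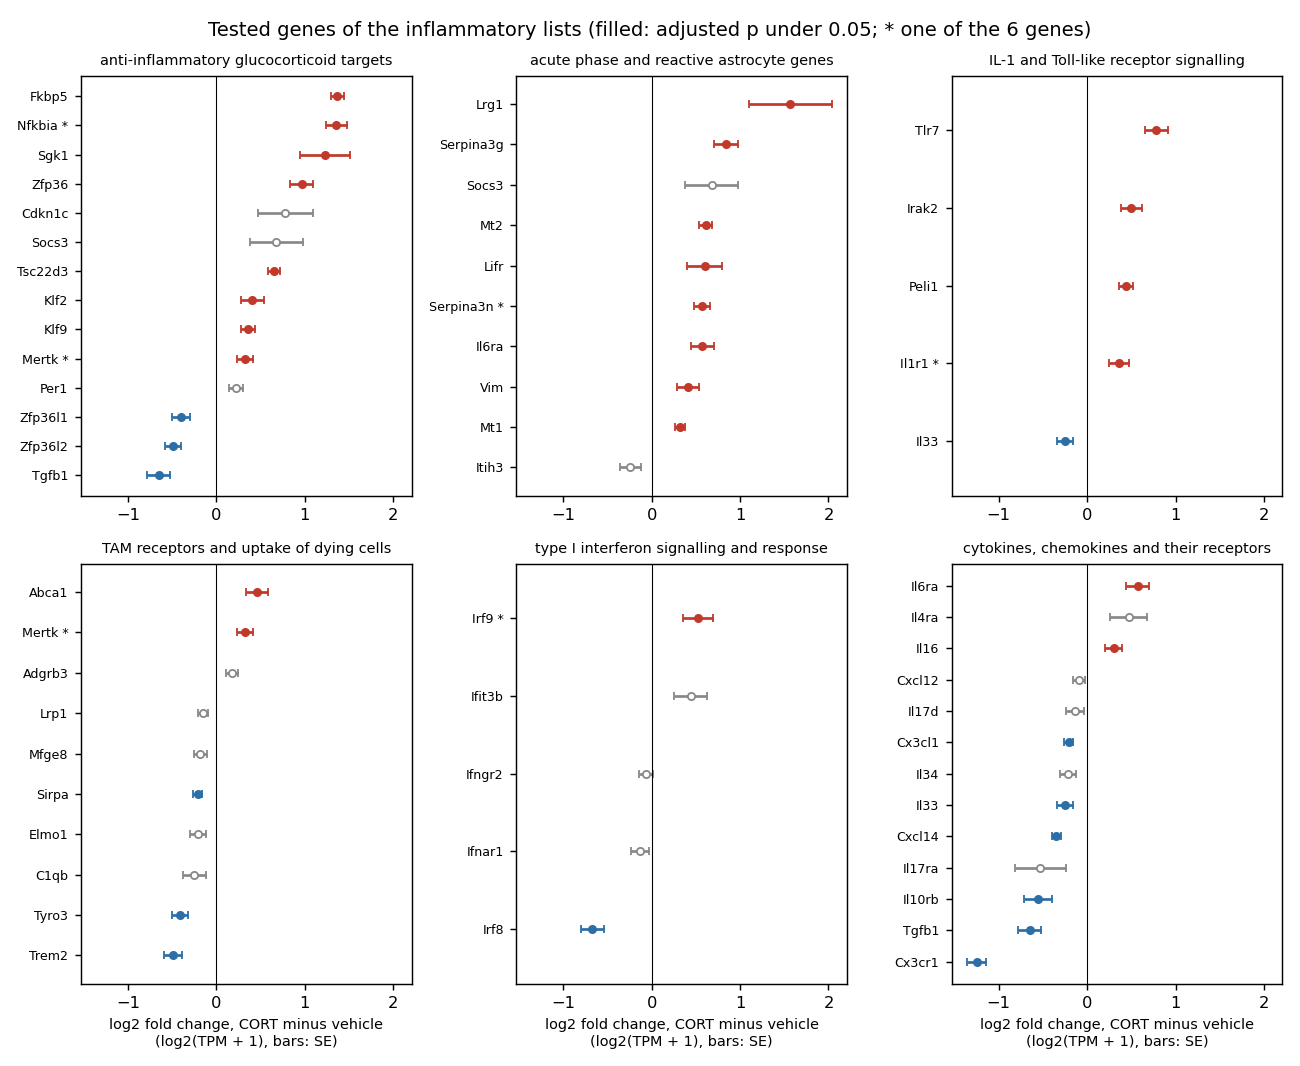
Log2 fold change (CORT minus vehicle, on log2(TPM + 1), bars: SE) of the tested genes of 6 inflammatory lists. Filled red points rose and filled blue points fell at an adjusted p under 0.05, open points did not pass, and stars mark the genes described here. Of the acute phase and reactive astrocyte genes 8 are filled red, whereas 6 of the 13 cytokines, chemokines and receptors are filled blue.

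Irf9 (ENSMUSG00000002325) encodes the DNA-binding part of the complex that carries type I interferon signals to the nucleus. It had 4.14, 4.48 and 4.24 TPM in the CORT libraries and 2.38, 3.77 and 2.11 TPM in the vehicle libraries. The CORT values were close together, whereas vehicle replicate 2 lay nearer to them than to the other vehicle libraries. The means were 4.29 ± 0.175 TPM in CORT and 2.75 ± 0.891 TPM in vehicle (SD, n = 3 each), a ratio of 1.56 and a log2 change of 0.52 (SE 0.17, adjusted p = 0.0315 from limma, exact permutation p = 0.1). Without vehicle replicate 2 it was 0.70 (adjusted p = 0.00814 from limma), and the call of Irf9 was lost without any other single library (0.0599 to 0.0911), with quantile normalization (0.0799), with median centring (0.05004) and with the GC correction (0.0694). The annotation places 123 bases of Irf9 in overlap with its neighbour Rnf31 on the same strand.

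Few other interferon genes were in the table. Of 68 gene names on a list of interferon signalling and response, mainly of type I, 5 were in the table and tested. Irf9 was higher, Irf8 was lower and 3 did not pass, with a median log2 change of -0.06. The share of 1 of 5 in each direction is near the 25.8% higher and 24.7% lower over all tested genes. Irf8, a transcription factor of microglia and other myeloid cells, had 1.81 ± 0.312 TPM in CORT and 3.45 ± 0.0700 TPM in vehicle (SD, n = 3 each), a log2 change of -0.67 (SE 0.13, adjusted p = 0.00534 from limma). Ifit3b, an interferon-induced antiviral gene, had 2.32, 4.34 and 2.7 TPM in the CORT libraries and 2.29, 1.7 and 1.94 TPM in the vehicle libraries, and it did not pass (adjusted p = 0.0659 from limma) except without CORT replicate 1 (0.0453). The receptor genes Ifnar1 and Ifngr2, the latter for interferon-gamma and so not of type I, had log2 changes of -0.13 and -0.06, with overlapping groups. The other 63 names of this list, Irf7 among them, were not in the table and were not analysed here.

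Ifi204 (ENSMUSG00000073489) belongs to the mouse PYHIN family of interferon-induced proteins, several of which bind DNA. It was near the floor of the measurement, with 0.12, 0.25 and 0.25 TPM in the CORT libraries and 0, 0.03 and 0 TPM in the vehicle libraries, 2 of which list it at 0. All CORT libraries were above the vehicle libraries, but at these levels the number of reads behind each value is unknown. Ifi204 was too low for the filter, and with no filter its difference of 0.25 on the log2(TPM + 1) scale did not pass (adjusted p = 0.0946 from limma). Its transcript matches that of Ifi211 at 96.9% identity over 1363 aligned bases and that of Mndal at 95.7% over 776, so that its value is uncertain. Of 30 gene names on a list of PYHIN and DNA-sensing genes 3 were in the table. Neither of the 2 tested, Tbk1 and the mitochondrial regulator Nlrx1 (log2 change -0.24), passed with an adjusted p under 0.05 from limma or with an unadjusted p under 0.05. Nlrx1 was lower with median centring (adjusted p = 0.0462 from limma).

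The glucocorticoid target Nfkbia was set against the other genes within each library, where a ratio of TPM is free of differences in scale between libraries. Relative to Serpina3n, Nfkbia stood at 0.990, 0.808 and 0.793 in the CORT libraries and at 0.573, 0.418 and 0.487 in the vehicle libraries. The ratio of Nfkbia to Irf9 was 16.1 to 18.2 in the CORT libraries and 5.93 to 14.3 in the vehicle libraries. Against Mertk, the other anti-inflammatory target, it was 3.60, 3.90 and 3.71 in the CORT libraries and 1.89, 1.56 and 2.01 in the vehicle libraries. In these and in the ratio to Il1r1 the groups did not overlap, and the mean log2 ratio was higher in CORT by 0.81, 0.71, 1.05 and 0.94 for Serpina3n, Irf9, Mertk and Il1r1 in turn (exact permutation test, p = 0.1 each, the smallest possible, and 0.25 after Benjamini-Hochberg adjustment over 10 pairs).

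In the 6 ratios among Mertk, Il1r1, Serpina3n and Irf9 the groups overlapped. Their mean log2 ratios differed between CORT and vehicle by -0.34 to -0.10 (exact permutation p of 0.3 to 0.7). Mertk relative to Serpina3n, for example, was 0.275, 0.207 and 0.214 in the CORT libraries and 0.303, 0.268 and 0.243 in the vehicle libraries. The ratios without overlap were thus the 4 that hold Nfkbia, whose log2 change was the largest of the 5 (1.36, against 0.33 to 0.57). They largely restate that larger change, and the share of such ratios over other gene pairs was not counted. The ratios that set Mertk against the acute phase and interferon genes overlapped. With 3 libraries per group none of these exact tests could pass the threshold of 0.05.

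**Figure D3:**
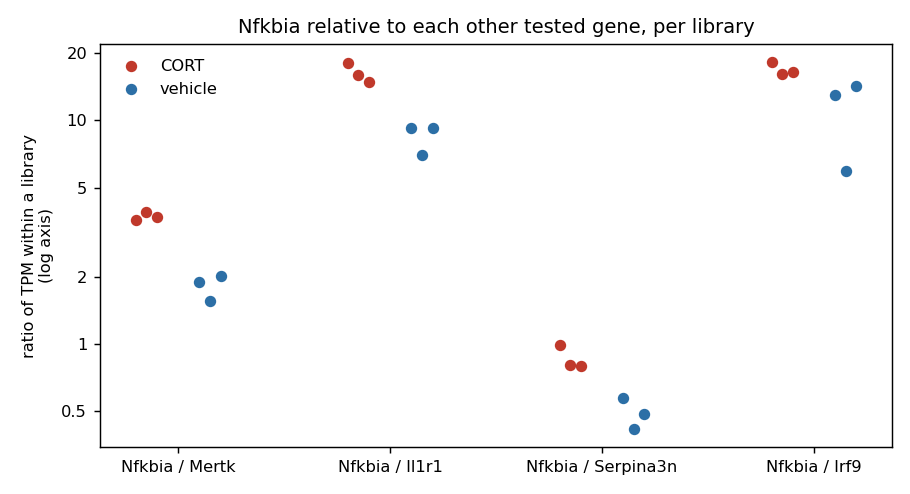
Ratio of the TPM of Nfkbia to that of each other tested gene within each library, on a log axis. For each gene the 3 CORT points lie above the 3 vehicle points, from 0.793 to 0.990 against 0.418 to 0.573 for Serpina3n, and closest for Irf9 (16.1 to 18.2 against 5.93 to 14.3).

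Cytokines, chemokines and their receptors, as a list, held more lower than higher genes, some of which quiet inflammation or act inside the cell. Of 61 cytokines, chemokines and their receptors, 16 were in the table and 13 were tested, 2 were higher, 6 were lower and 5 did not pass, with a median log2 change of -0.22 against 0.05 over all tested genes, of which 25.8% were higher and 24.7% lower. Cx3cr1, the microglial receptor for the neuronal chemokine Cx3cl1, had 8.28 ± 1.10 TPM in CORT and 20.9 ± 0.545 TPM in vehicle (SD, n = 3 each), a log2 change of -1.25. Its ligand Cx3cl1 had one of -0.21 (adjusted p = 0.0143 from limma, but 0.142 when libraries were quantile normalized). Cxcl14 had 113 ± 2.93 TPM in CORT and 144 ± 2.53 TPM in vehicle (SD, n = 3 each), and Il10rb, a subunit of the interleukin-10 receptor, fell by 0.56 on the log2 scale, a call that was lost without CORT replicate 1 or 2 or vehicle replicate 1 or 3 (adjusted p of 0.0504 to 0.0676 from limma). The 2 that were higher were Il6ra and Il16, a chemoattractant cytokine, with a log2 change of 0.30. In single left-out libraries and under the other normalizations 1 or 2 were higher and 4 to 7 were lower.

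Markers of the cells that express these genes also differed between the groups. In whole hippocampus, fewer cells of a type and less RNA per cell cannot be told apart. Over all tested genes 25.8% were higher and 24.7% lower, which is the background for the counts of markers. Of 22 microglial markers 11 were in the table, 8 were lower, 2 were higher and 1 did not pass, and their summed level was 180 to 214 TPM in the CORT libraries and 247 to 271 TPM in the vehicle libraries. Fcrls and P2ry12, which mark resting microglia, had log2 changes of -1.31 and -0.84, whereas Siglech, another microglial gene, had 17.2 ± 2.20 TPM in CORT and 12.7 ± 1.10 TPM in vehicle (SD, n = 3 each). Without any single library at most 1 of the 2 higher markers, Siglech and Selplg, still passed. Trem2 and Cx3cr1 are among these markers, and Irf8 fell in the same libraries. Mertk and Tlr7, which microglia are known to express, though not they alone, rose.

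Of 16 astrocyte markers 8 were in the table, 4 were lower and 4 did not pass, with summed levels of 1780 to 1800 TPM in the CORT libraries and 1960 to 2060 TPM in the vehicle libraries. Sox9, a nuclear marker of astrocytes, had 7.55 ± 0.375 TPM in CORT and 13.5 ± 2.23 TPM in vehicle (SD, n = 3 each). Slc4a4, an astrocyte bicarbonate transporter, was the 1 marker of the 8 with a positive log2 change (0.19, adjusted p = 0.103 from limma), and 1 astrocyte marker was higher without vehicle replicate 3. Among 20 endothelial markers 12 were in the table, 7 were lower, 3 were higher and 2 did not pass, and their sum was 360 to 374 TPM in the CORT libraries and 318 to 351 TPM in the vehicle libraries, a sum to which Slc2a1 added 132 to 141 TPM in CORT and 62.4 to 79.5 TPM in vehicle. Cldn5, a junction protein of brain endothelium, had a log2 change of -1.41, and Il1r1, which is not confined to endothelium, was higher in the same libraries. Of 22 genes of border macrophages and other leukocytes only Itgad, an integrin subunit, was in the table, with 3.4, 3.04 and 1.87 TPM in the CORT libraries and 0.51, 0.14 and 0.14 TPM in the vehicle libraries. No listed marker of these 4 cell types was at 0 in all libraries, but a gene at 0 throughout could not have passed the authors' selection. The part of cell composition in the results was not tested.

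**Figure D4:**
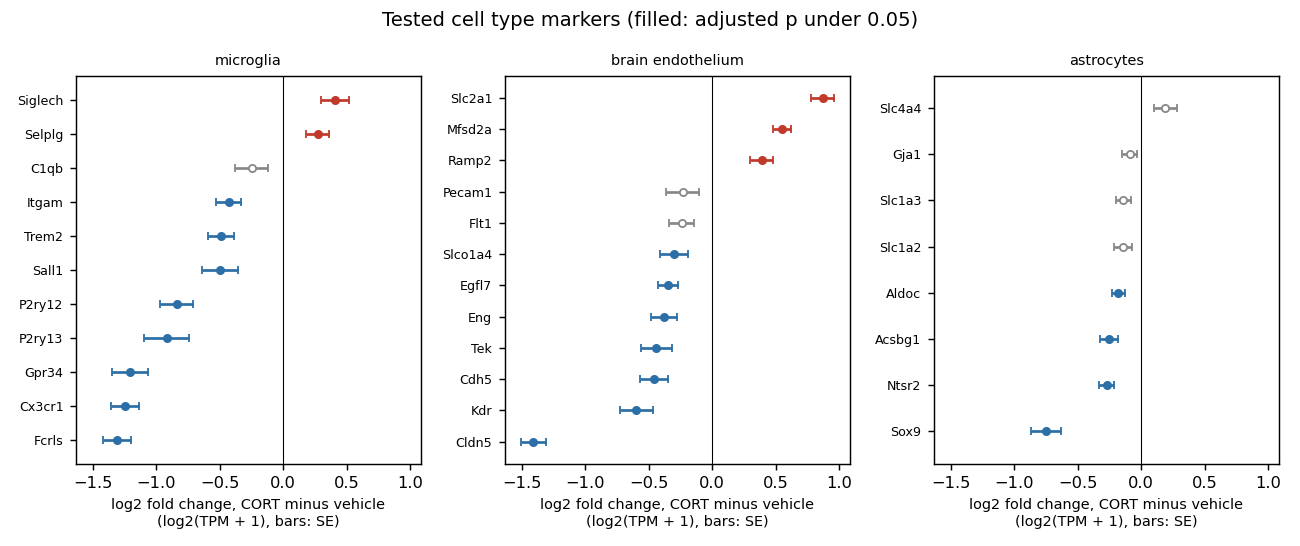
Log2 fold change (CORT minus vehicle, on log2(TPM + 1), bars: SE) of the tested markers of microglia, brain endothelium and astrocytes. Filled points passed at an adjusted p under 0.05 (red higher, blue lower): 8 microglial, 7 endothelial and 4 astrocyte markers were lower, and 2 microglial and 3 endothelial markers were higher.

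The remaining marker lists were small. Of 12 pericyte and smooth muscle markers 4 were in the table, Rgs5 was higher, Vtn was lower and 2 did not pass, whereas 3 were lower with median centring, with quantile normalization or without the trend and robust options, and 0 were higher with quantile normalization or the GC correction. Of 14 oligodendrocyte markers 3 were listed, with Mobp higher and Sox10 and Erbb3 lower, and of 14 neuronal markers Syp alone was listed and was lower by 0.16 on the log2 scale. Rgs5, Mobp and Syp each lost the call in at least 1 fit without a library. Of 10 choroid plexus markers Folr1 and Kcne2 were listed, and without CORT replicate 3, where both were high, the log2 changes of Nfkbia and Serpina3n were 1.39 and 0.54.

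The genes most like each of the 5 tested genes were taken as those with the smallest root-mean-square difference in log2(TPM + 1) over the 6 libraries, after each gene was centred on its mean. For Nfkbia these were Angptl4, a lipoprotein lipase inhibitor and known glucocorticoid target (difference 0.0927), the arrestin-like gene Arrdc2 (0.116) and Lao1, an amino acid oxidase (0.120). Serpina3n was closest to Mt2 (0.0531), the chromatin factor Arid5b (0.0540) and the endothelial lipid transporter Mfsd2a (0.0623). Irf9 was closest to Mkln1 (0.0863), which had 35.5, 34.09 and 30.03 TPM in the CORT libraries and 22.53, 30.52 and 20.05 TPM in the vehicle libraries, with the same raised value in vehicle replicate 2.

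Mertk was closest to the splicing factor Prpf38a (0.0236), the volume-regulated channel subunit Lrrc8a (0.0267) and the stress-induced Sesn1 (0.0495). For Il1r1 the nearest were the transcription factors Mga (0.0329) and Zbtb1 (0.0341) and the neuronal gene Nav2 (0.0342). The differences were smaller for Mertk and Il1r1 than for Nfkbia, whose neighbours had log2 changes of 1.27 to 1.35.

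**Figure D5:**
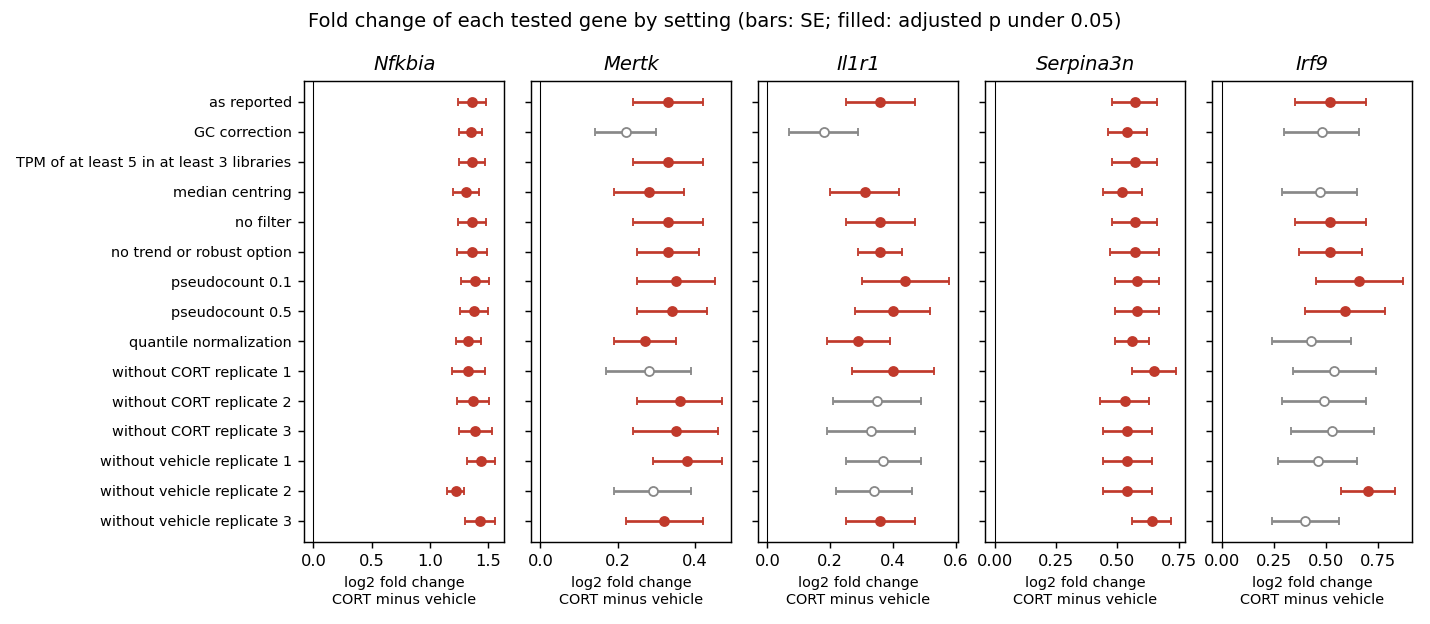
Log2 fold change (CORT minus vehicle, bars: SE) of the 5 tested genes as reported and under 14 other settings, with filled points at an adjusted p under 0.05. Nfkbia and Serpina3n are filled under every setting shown, Mertk and Il1r1 lose the call under several, and Irf9 under most that leave out a library or rescale the libraries. Il1r1 and Irf9 have no value where 5 TPM was required.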

How the data were processed

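Hippocampal RNA of 3 CORT and 3 vehicle mice was sequenced (TruSeq libraries, paired-end reads). Reads were trimmed with fastp by the authors. HISAT2, StringTie and RSEM, and the build GRCm39, are named in the submitters' processing notes, without versions. The deposited values are TPM computed by the authors per library. The table also holds the authors' fold change, log2 fold change and p-value for each gene, which were not used, and lists only genes with a p under 0.05. Column names give the group (the control columns read WT, taken as vehicle, the series having no other control) but not the sample, so replicate numbers are those of the columns. Nothing ties a column to a mouse.

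Values were tested as log2(TPM + 1) with limma 3.58.1 in R 4.3.3 (eBayes with trend and robust options) over genes with at least 1 TPM in at least 3 libraries, with Benjamini-Hochberg adjustment and a threshold of 0.05. The limma fit was tested on simulated log2(TPM + 1) values with known changes, which did not imitate the authors' selection of genes. Single genes and ratios were also compared by two-sided exact permutation tests (scipy 1.17.1). The 6 genes, the gene lists and the alternatives were chosen with earlier results of these data known. Named list genes were up to 6 per list with the smallest p, some members too low to test, and others chosen after their values were seen. GC content was that of the longest coding transcript in GENCODE M21, found for 99.87% of tested genes, and its correction (a spline with 4 degrees of freedom per library) was added after the data were seen. Paralogs were compared with BLAST 2.17.0. Sequences are from RefSeq (GRCm38.p6). Some markers are not reported here.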

Additional observations from a re-analysis of the deposited data

How the results depend on the processing

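Nfkbia and Serpina3n kept their direction and their call under all 15 alternatives each. At an adjusted p under 0.01 from limma the calls of Mertk, Il1r1 and Irf9 (log2 fold changes 0.33, 0.36 and 0.52) were lost, and 328 genes were called (194 higher, 134 lower) against 1133 (579 higher, 554 lower). With the GC correction the log2 fold changes of Mertk, Il1r1 and Irf9 were 0.22, 0.18 and 0.48 and none passed, and that of Tbk1 turned to -0.02. Irf9 also missed the threshold with median centring (0.47) and quantile normalization (0.43). With single libraries left out, log2 fold changes ranged from 1.22 to 1.44 for Nfkbia, 0.28 to 0.38 for Mertk, 0.33 to 0.40 for Il1r1, 0.53 to 0.65 for Serpina3n, 0.40 to 0.70 for Irf9 and 0.23 to 0.31 for Ifi204, and the number of genes called from 620 to 1187 (338 to 729 higher, 282 to 464 lower). Ifi204 differed by 1.46 with a pseudocount of 0.1 and by 0.47 with 0.5, against 0.25. The share of calls that were higher was 51.1%, and 38.6% with median centring. The cause of these changes was not tested. Where 5 TPM was required, Il1r1, Irf9 and Ifi204 gave no value. No paired analysis was possible because the table's columns are not tied to the numbered samples, whose groups share a single number. The slope of each library's deviation on GC content was -0.121 to -0.0745 log2 units per 10 points in CORT and 0.0355 to 0.183 in vehicle, so GC content and treatment cannot be fully told apart. Depth is unknown, which limits Ifi204 most.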
